A study of Mus musculus with 9 samples.

Results

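The gene expression of Gr-1- blood monocytes was compared between a library labelled null for Fcgr2 (Fcgr2-/-.Yaa) and a library labelled floxed (Fcgr2 fl/fl.Yaa, with no Cre), 2 of the 9 libraries of the series. The comparison was chosen by these labels, and it holds 1 library a side, so every value below is a description with no test. RNA sequencing was done on sorted CD11b+ cells from the peripheral blood of C57BL/6 mice at 8 months of age. All mice carried Yaa, in which a stretch of the X chromosome with Tlr7 has been copied to the Y. The null mice lack Fcgr2 in every cell per the label, and the floxed mice keep an allele that only a Cre would delete. The other 3 Gr-1- libraries, labelled CD19Cre;Fcgr2 fl/fl.Yaa, CEBPaCre;Fcgr2 fl/fl.Yaa and CD11cCre;Fcgr2 fl/fl.Yaa, served as a reference range and are called the references. Of these, CEBPaCre is named for Cebpa, a myeloid gene, and CD11cCre for the product of Itgax, a gene of dendritic cells and some monocytes. The labels do not say how many animals went into a library or whether libraries share animals. Levels are FPKM, fragment numbers divided by the length of the transcript and the size of the library, and a log2 ratio is that of (FPKM + 1), null over floxed. A symbol was tested, meaning compared, if it reached 5 FPKM in either library, and 7136 of 23234 symbols did. Of symbols nearest that floor, Mynn lay just inside with 5.00 FPKM in null and 2.91 FPKM in floxed, and Cxx1b lay just outside with 2.77 and 4.998 FPKM.

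Gr-1- monocytes, the nonclassical or patrolling subset, live in the blood, crawl along the vessel wall and clear debris and immune complexes. Fcgr2b encodes CD32B, the inhibitory receptor for IgG, which restrains activating Fc gamma receptors through an ITIM motif and the phosphatase SHIP1. Mice without it are prone to lupus, and the extra Tlr7 copy of Yaa, a sensor of single-stranded RNA, worsens that disease. Type I interferon acts through STAT2 and IRF9, which take part in binding interferon-stimulated response elements in the promoters of their targets, while interferon gamma induces IRF1 and raises both classes of MHC molecule.

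FPKM summed to 411256 in the null and 421568 in the floxed library and to 472122 to 548112 in the references, and 5123, 5246 and 6655 to 8827 symbols were listed at 0. No file gives counts, but the most common ratio between low values put the depth of the null library at 1.30 times that of the floxed library, and the references at 1.23 to 2.66 times. Only 12.2% (CD19Cre) to 21.2% (null) of the low genes had that ratio. The CD19Cre library, put at 2.66 times, also listed the most symbols at 0 of the 5, 8827. The 2 readings thus did not rank the libraries alike, and the depths are rough. All 10 marker genes of nonclassical monocytes that were looked at reached 5 FPKM in each of the 5 libraries, with Nr4a1 at 609 FPKM in null and 560.5 FPKM in floxed. Treml4 stood at 493 and 456 FPKM, which is close. The classical marker Ccr2 stood at 28.2 FPKM in null and 21.5 FPKM in floxed, against 539.6 and 465 FPKM in the null Gr-1+ libraries. Camp and Epx, of neutrophils and eosinophils, were listed at 0 in both libraries, and Prg2, Cd3e, Pax5 and Clec9a were listed at 0 in null and above 0 in floxed.

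The targeted gene did not separate the libraries as their labels would. Fcgr2b stood at 145 FPKM in the null library and 74.9 FPKM in the floxed library, against 105, 83.05 and 92.9 FPKM in the CD19Cre, CEBPaCre and CD11cCre libraries. The library labelled null was thus the highest of the 5 and the floxed library the lowest, with a log2 ratio of 0.94, or 0.70 after centring within 10 bins of transcript length. The 2 null Gr-1+ libraries held 201 and 106 FPKM. A value per symbol does not show which part of the transcript was read, and part of Fcgr2b is near-identical to Fcgr3, so the value does not check the label, and "null" below means the library so labelled. Fcgr4, the activating receptor for IgG2a and IgG2b that marks nonclassical monocytes, stood at 594 FPKM in null, 387 FPKM in floxed and 406, 427 and 512 FPKM in the references. It followed the same order as Fcgr2b, highest in null and lowest in floxed. Fcgr3, the activating receptor of broad use, had 58.9 FPKM in null, 83.4 FPKM in floxed and 130.5, 75.3 and 124 FPKM in the references, the lowest in null. Fcgr1, the high-affinity receptor, was under the floor in both libraries, at 3.33 and 4.99 FPKM. Of 20 tested genes of Fc gamma receptors and their signalling, 0 were 2-fold apart, and their median log2 ratio was 0.42 against 0.13 over all tested symbols. Inpp5d, which encodes SHIP1, had 52.6 FPKM in null, 30.9 FPKM in floxed and 85.5, 75.98 and 84.3 FPKM in the references.

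Over all tested symbols, 165 (2.31%) were 2-fold or more higher in null and 155 (2.17%) were 2-fold or more lower. With the log2 ratios centred on their median the same counts were 130 and 187, and with centring within the same length bins 115 and 164, so which direction was the larger depended on the centring. Most of these symbols were also apart from the references, meaning that null or floxed lay outside the reference range on the side of the change. These were 144 of the higher (2.02%) and 147 of the lower (2.06%). The only replicates of one group, the 2 null Gr-1+ libraries, were 2-fold apart at 345 of 7402 symbols (4.66%), against 4.48% between null and floxed. The 2 shares were close, and their order turned with the centring, at 4.44% for null and floxed and 4.34% for the replicates once ratios were centred on their median. The SD of the log2 ratios was 0.949 for null and floxed and 0.851 for the replicates. Small RNAs made up 51 of the higher and 42 of the lower symbols. Without them and without predicted genes, 103 were higher and 101 lower, 3.17% against 3.31% between the Gr-1+ replicates, or 3.11% against 3.06% once centred. The 2 directions differed in which library stood outside. Of the 103 higher genes, floxed alone lay outside the references in 55 and null alone in 13, whereas of the 101 lower genes null alone lay outside in 55 and floxed alone in 8. Both libraries were low to begin with. Against the mean of the references, the median log2 ratio over all tested symbols was -0.30 in null and -0.44 in floxed. Such an offset places low values outside the range more readily than high ones, and the split was not repeated with scaled or centred values. Null was the lowest of the 5 Gr-1- libraries for 1428 tested symbols (20%) and the highest for 425 (5.96%), and these became 820 and 1105 when each library was scaled to the same sum.

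**Figure D1:**
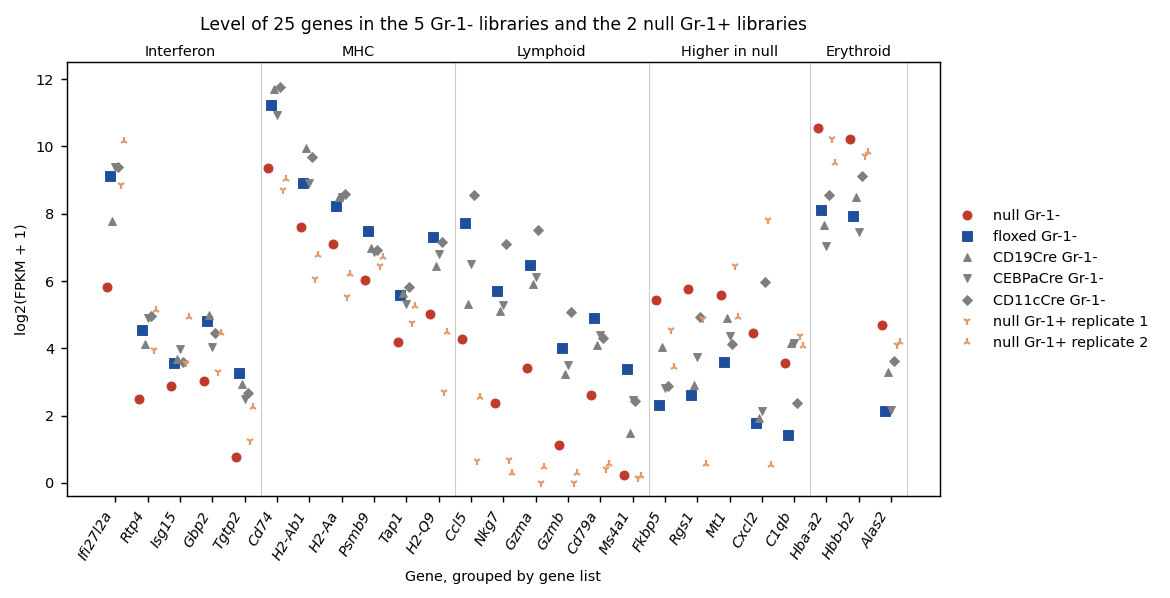
Level of 25 genes, as log2(FPKM + 1) on the vertical axis, with 1 point a library: null Gr-1- (red circles), floxed Gr-1- (blue squares), the 3 reference Gr-1- libraries (grey) and the 2 null Gr-1+ libraries (orange). Null lies below all 4 other Gr-1- libraries for every gene drawn in the interferon, MHC and lymphoid blocks, and above floxed for every gene in the last 2 blocks; the genes were drawn for these values.

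Interferon-response genes formed the broadest class that was lower in null. Their promoters carried the interferon-stimulated response element more often than other promoters. The motif was searched on both strands as the letters GAAANNGAAA, with overlapping matches counted, in RefSeq windows of 300 bases (250 before the start site to 50 after, GRCm38.p6, a build other than that of the files). It was found for 14 of 33 tested type I interferon genes with a window (42.4%) and for 8 of 11 genes of the interferon gamma and GTPase list (72.7%). The share was 238 of 5615 tested symbols (4.24%) and 1131 of 32851 windows in all (3.44%). Among tested symbols with a window, 17 of 80 that were 2-fold lower in null held the motif and 5 of 79 that were 2-fold higher. The lower set includes genes of these interferon lists, so it is no separate count. The 238 tested symbols with the motif had a median log2 ratio of 0.05, against 0.13 over all tested symbols. Members with the motif had -0.71 in the type I list and -1.32 in the interferon gamma list, against -0.69 and -1.05 over all tested members. A match is a run of letters and not a shown binding site. The stretches below hold the motif of genes with values in the next paragraphs, 5′ to 3′ on the strand of the gene, and the capitals mark the motif (GAAA pairs, or TTTC pairs where it lies on the opposite strand). They lie at chr11:49064243-49064312 (minus strand) for Tgtp2, chr3:142620574-142620643 (plus) for Gbp2, chr11:58199492-58199555 (plus) for Igtp, chr5:120907526-120907575 (minus) for Oas1a, chr8:71537557-71537632 (minus) for Bst2, chr10:128270248-128270315 (plus) for Stat2 and chr4:156200845-156200926 (minus) for Isg15, all before the start site of transcription.
Tgtp2: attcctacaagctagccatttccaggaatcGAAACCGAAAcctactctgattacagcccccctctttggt
Gbp2: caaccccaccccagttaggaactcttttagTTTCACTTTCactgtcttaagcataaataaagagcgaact
Igtp: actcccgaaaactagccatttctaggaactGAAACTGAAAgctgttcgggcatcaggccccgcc
Oas1a: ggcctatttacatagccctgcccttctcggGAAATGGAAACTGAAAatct
Bst2: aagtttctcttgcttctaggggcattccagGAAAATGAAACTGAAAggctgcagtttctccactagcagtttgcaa
Stat2: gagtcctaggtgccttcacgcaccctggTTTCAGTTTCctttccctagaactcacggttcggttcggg
Isg15: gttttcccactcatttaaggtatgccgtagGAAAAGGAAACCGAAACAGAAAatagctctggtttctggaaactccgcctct
The Oas1a, Bst2 and Isg15 stretches hold overlapping copies, so that more than 1 match runs through the capitals.

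Of 43 tested type I interferon genes, 13 were 2-fold or more lower in null and 0 higher, 37 had a log2 ratio below 0, and the median was -0.69. Null was the lowest of the 5 Gr-1- libraries for 28 of the 43, or 22 on the scale of equal sums. Against the mean of the references the list's median was -0.84 in null and -0.30 in floxed, where all tested symbols had -0.30 and -0.44, so the list was low in null and not high in floxed. Ifi27l2a, a small protein known for its induction by interferon, stood at 55.8 FPKM in the null library and 562 FPKM in the floxed library, against 217, 669 and 671 FPKM in the CD19Cre, CEBPaCre and CD11cCre libraries. It was 9.91-fold higher in floxed than in null. Null was below all of the others, and floxed lay inside the reference range. Rtp4, an inhibitor of viral replication, had 4.68 FPKM in null, 22.3 FPKM in floxed and 16.6, 28.6 and 30.3 FPKM in the references, a 4.103-fold difference. The sensors of double-stranded RNA that make 2′-5′ oligoadenylate were low as well. Oas1a had 12.7 FPKM in null, 29.5 FPKM in floxed and 38.1, 50.6 and 59.1 FPKM in the references, with a log2 ratio of -1.15, and Oas3 and Oas2 had log2 ratios of -1.14 and -1.21. Stat2, a subunit of the complex that binds the response element, had 5.93 FPKM in null, 12.2 FPKM in floxed and 14.3, 13.6 and 11.9 FPKM in the references, with null the lowest. Oas1a and Oas1g are near-identical, so reads may be shared between them. Bst2, tetherin, which holds budding virus at the cell surface, had 25.9 FPKM in null, 60.03 FPKM in floxed and 47.98, 58.1 and 60.6 FPKM in the references. Isg15, a ubiquitin-like modifier, had 6.297 FPKM in null, 10.9 FPKM in floxed and 11.9, 14.8 and 11.2 FPKM in the references, and Irf7, which amplifies interferon output, had 33.2 FPKM in null, 65.4 FPKM in floxed and 76.6, 89.8 and 98.3 FPKM in the references. For these genes too null was the lowest, but neither was 2-fold apart from floxed, which itself lay below the references. Not all of the class was lower. The RNA helicase Ddx58 (RIG-I) stood at 4.91 and 5.02 FPKM and Ifih1 (MDA5) at 5.37 and 4.33 FPKM in null and floxed. All 7 tested genes of the Ifi200 family, sensors of DNA, had a log2 ratio below 0, with a median of -0.59 and Ifi205 the only one past 2-fold, at -1.65.

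The genes that interferon gamma is known for showed a larger median. Of 13 tested, 7 were 2-fold lower in null and 0 higher, with a median of -1.05, and null was the lowest of 5 in 10. The GTPase Tgtp2, which attacks the vacuoles of intracellular parasites, had 0.689 FPKM in null, 8.63 FPKM in floxed and 6.596, 4.67 and 5.41 FPKM in the references. Tgtp1, near-identical to it, had a log2 ratio of -2.46, and the 2 are not independent. Gbp2, a guanylate-binding protein of the same defence, had 7.21 FPKM in null, 26.8 FPKM in floxed and 30.8, 15.6 and 20.9 FPKM in the references. Igtp, another immunity GTPase, had 7.64 FPKM in null, 17.7 FPKM in floxed and 28.7, 20.9 and 24.2 FPKM in the references. Null was below each of the 4 other libraries for all of these. Irf1, the transcription factor that carries the interferon gamma response, had 54.8 FPKM in null, 125 FPKM in floxed and 76.9, 95.3 and 120.4 FPKM in the references, a 2.25-fold difference in which null was the lowest and floxed the highest. Irf8, a factor that monocytes need to form, had 49.2 FPKM in null and 56.7 FPKM in floxed.

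The interferon difference had a counterpart between libraries of one genotype. Between null Gr-1+ replicates 1 and 2 the type I interferon list had a median log2 ratio of -0.67, close to that of null over floxed, and 34 of its 43 genes had the same sign in both pairs, against 3677 of 6617 over all symbols that reached the floor in both. Ifi27l2a stood at 465 and 1136 FPKM in the 2 null Gr-1+ libraries. The null Gr-1- library carries the number 1 like the lower of these libraries, but the labels do not say whether the number marks a shared mouse. A difference between null and floxed mice and a difference between single samples cannot be told apart here.

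**Figure D2:**
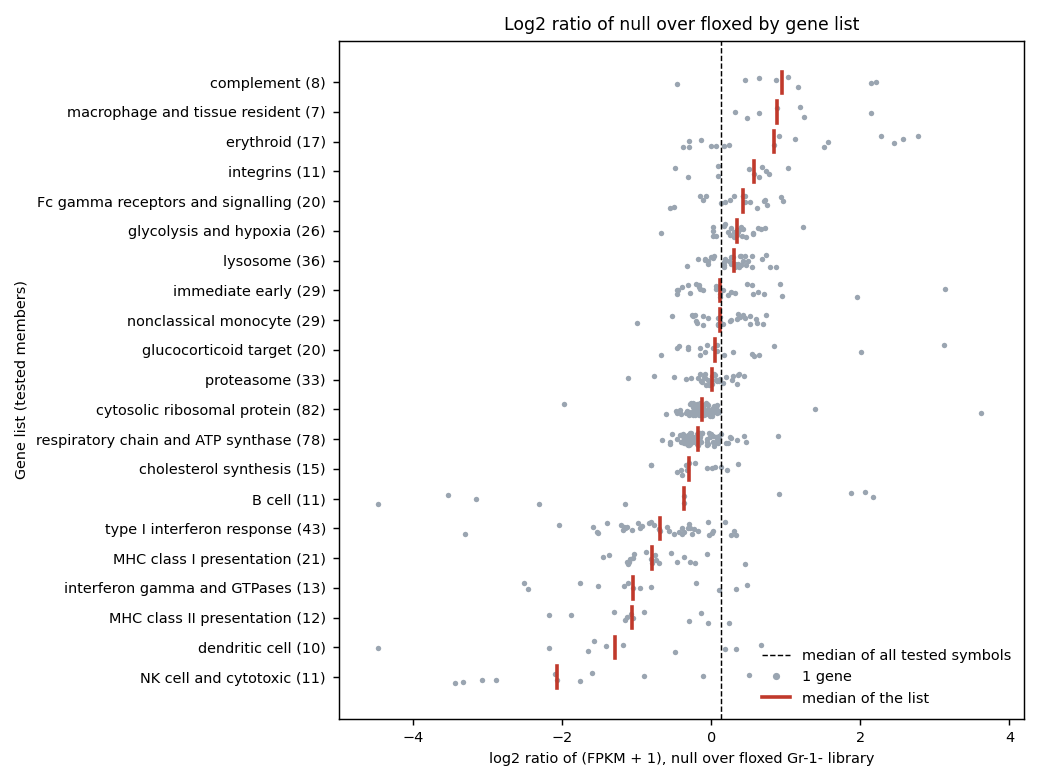
Log2 ratio of (FPKM + 1) of null over floxed for the tested members of 21 gene lists; each grey point is 1 gene, the red bars are list medians and the dashed line is the median of all tested symbols. Lymphoid, dendritic, MHC and interferon lists lie to the left, with medians from -0.36 (B cell) to -2.06 (NK cell), and complement, macrophage and erythroid lists to the right, with medians from 0.84 to 0.95.

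Antigen presentation by MHC class II was lower in null. Of 12 tested genes, 7 were 2-fold lower and 0 higher, and the median log2 ratio was -1.06. Null was the lowest of the 5 libraries for 10, against 1428 of 7136 (20%) over all tested symbols. The list holds Cd209a, a lectin that the dendritic cell list shares, and its median over members in no other list was -1.06. Cd74, the invariant chain that escorts class II molecules, stood at 655 FPKM in the null library and 2425 FPKM in the floxed library, against 3320.1, 1962 and 3461 FPKM in the CD19Cre, CEBPaCre and CD11cCre libraries. H2-Ab1, the beta chain of the I-A molecule, stood at 196 FPKM in the null library and 486 FPKM in the floxed library, against 985, 479.6 and 815 FPKM in the CD19Cre, CEBPaCre and CD11cCre libraries. Null lay below the others by 3.700-fold and 2.47-fold against floxed, and floxed lay within the reference range for both. H2-Aa and H2-Eb1 had log2 ratios of -1.13 and -1.07. The peptide exchange factors H2-DMa, H2-DMb1 and H2-DMb2 had -1.15, -0.90 and -1.05. In contrast the processing enzymes were near equal. Ctss, the protease that trims the invariant chain, had 997 and 1031 FPKM in null and floxed, and Ifi30, a thiol reductase of the lysosome, had 110.2 and 93.5 FPKM. Between the Gr-1+ replicates the list's median was -0.32. Class II genes are also a hallmark of B cells and dendritic cells. The 23 genes of the dendritic cell list summed to 88.3 FPKM in null and 175 FPKM in floxed, with 142 to 247 FPKM in the references, and the 26 of the B cell list to 134 and 176 FPKM, with 234 to 311 FPKM in the references. Of 10 tested dendritic cell genes 6 were 2-fold lower, 0 were 2-fold higher and 3 were above 0. The lower ones included the lectins Cd209a at 3.98 FPKM in null, 21.5 FPKM in floxed and 20.3, 31.8 and 58.3 FPKM in the references and Clec10a at 2.83 FPKM in null, 9.15 FPKM in floxed and 5.098, 8.38 and 9.12 FPKM in the references. The 5 defining dendritic cell markers were nearly equal, with a sum of 7.80 FPKM in null, 8.98 FPKM in floxed and 7.89 to 9.91 FPKM in the references. The 5 defining B cell markers were lower in null, with a sum of 29.6 FPKM in null, 74.7 FPKM in floxed and 63.6 to 112 FPKM in the references. The part of these cells in the class II values was not tested.

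MHC class I presentation showed the same direction with a smaller median. Of 21 tested genes 8 were 2-fold lower and 0 higher, 20 were below 0, the median was -0.80, and null was the lowest of 5 in 19. Psmb9, an inducible subunit of the immunoproteasome, had 64.4 FPKM in null, 178 FPKM in floxed and 126, 116 and 120.2 FPKM in the references. Tap1, which pumps peptides into the endoplasmic reticulum, had 17.3 FPKM in null, 46.6 FPKM in floxed and 49.3, 39.2 and 55.5 FPKM in the references. The classical heavy chain H2-K1 had 712 FPKM in null, 1471 FPKM in floxed and 1283, 1315 and 1477 FPKM in the references, and null was below every other library for all of these. H2-D1 and B2m, the other classical chain and the shared light chain, had log2 ratios of -0.45 and -0.37, and B2m in null lay within the reference range. H2-Q9, a nonclassical chain in a cluster of near-identical genes, showed 31.4 FPKM in null, 159 FPKM in floxed and 85.9, 111 and 142 FPKM in the references. Nlrc5, the transactivator of class I genes, had 2.296 FPKM in null, 6.203 FPKM in floxed and 5.07, 7.601 and 8.68 FPKM in the references. The immunoproteasome subunits and the PA28 activator (Psmb8, Psmb9, Psmb10, Psme1 and Psme2, grouped after their values were seen) had a median of -1.10, while the 31 other proteasome genes had a median of 0.01. Of those 31, 0 were 2-fold apart, and the 5 are the parts of the proteasome that interferon is known to induce. Between the Gr-1+ replicates the class I list differed by a median of -0.18.

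Genes of cytotoxic lymphocytes showed the lowest median of the lists with more than 3 tested genes. Of 11 tested NK cell and cytotoxic genes, 8 were 2-fold lower in null and 0 higher, with a median of -2.06. A log2 ratio above 0 was found for 1 of the 11, and null was the lowest of 5 in 9. Ccl5, a chemokine of NK and T cells, stood at 18.4 FPKM in the null library and 209 FPKM in the floxed library, against 39.2, 90.3 and 374 FPKM in the CD19Cre, CEBPaCre and CD11cCre libraries. Null was the lowest, but the references themselves spanned a wide range and floxed lay within it. Gzma, a granule protease, had 9.67 FPKM in null, 88.5 FPKM in floxed and 59.3, 68.6 and 184 FPKM in the references. Nkg7, a protein of the same granules, had 4.18 FPKM in null, 51.3 FPKM in floxed and 33.4, 37.7 and 136 FPKM in the references, and Gzmb had 1.18 FPKM in null, 15.1 FPKM in floxed and 8.44, 10.4 and 32.9 FPKM in the references. For all of these null was the lowest and the CD11cCre library the highest. Ncr1, the NK receptor NKp46, had 0.809 FPKM in null, 5.15 FPKM in floxed and 4.62, 6.74 and 22.8 FPKM in the references, and Prf1, perforin, had 1.77 FPKM in null and 7.37 FPKM in floxed. The other defining NK markers were Klrb1c, at 0.456 FPKM in null and 2.84 FPKM in floxed, and Klrd1. Klrd1 had 5.23 FPKM in null, 10.6 FPKM in floxed and 3.90, 10.5 and 15.4 FPKM in the references, so null was not the lowest for it. The 33 genes of the list summed to 247 FPKM in null, 622 FPKM in floxed and 501 to 1248 FPKM in the references. Of the 5 defining NK markers, 0 were listed at 0 in any of the 5 libraries. In bulk RNA, fewer lymphoid cells in the sort and less RNA per cell cannot be told apart. Only 2 T cell genes were tested, Cd2 with a log2 ratio of -2.41 and Cd8b1 with -1.25. Null was the lowest of 5 for Cd2. Cd8b1 had 2.24 FPKM in null, 6.72 FPKM in floxed and 1.00, 1.53 and 1.21 FPKM in the references, so both libraries lay above the references. The CD3 chains were under the floor, with Cd3e listed at 0 in null and in all 3 references and at 2.04 FPKM in floxed. Of 3 tested GIMAP genes, GTPases of lymphocyte survival, 2 were 2-fold lower, Gimap4 at -2.30 and Gimap6 at -2.24.

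B cell genes were divided. Of 11 tested, 5 were 2-fold lower in null and 3 higher, with a median of -0.36. Cd79a, a signalling chain of the B cell receptor, had 5.08 FPKM in null, 29.1 FPKM in floxed and 16.3, 19.99 and 18.9 FPKM in the references, and Ms4a1, which encodes CD20, had 0.165 FPKM in null, 9.35 FPKM in floxed and 1.796, 4.49 and 4.41 FPKM in the references. Igj, the joining chain of plasma cells, had 0.374 FPKM in null, 14.9 FPKM in floxed and 1.66, 48.5 and 77.8 FPKM in the references, and Ly6d was listed at 0 in null and at 21.2 FPKM in floxed, with 7.34, 8.24 and 15.7 FPKM in the references. Null was the lowest for each of them, and floxed the highest for all but Igj. Yet Cd79b, the partner of Cd79a, had 24.2 FPKM in null, 31.4 FPKM in floxed and 41.8, 36.4 and 51.00 FPKM in the references, a log2 ratio of -0.36. The 3 higher genes are also known outside B cells. Cd72, an inhibitory coreceptor, had 29.3 FPKM in null, 7.29 FPKM in floxed and 38.8, 19.3 and 20.2 FPKM in the references, Fcrl5, an Fc receptor-like protein, had 14.6 FPKM in null, 2.48 FPKM in floxed and 7.35, 12.9 and 10.9 FPKM in the references, and Cd38, an ectoenzyme that consumes NAD, had 22.2 FPKM in null, 4.56 FPKM in floxed and 20.2, 5.52 and 4.798 FPKM in the references. Floxed was the lowest of the 5 for each of these 3.

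Haemoglobin genes and Alas2 were higher in null. Of 17 tested erythroid genes, 7 were 2-fold higher and 0 lower, the median was 0.84, and 7 were highest in null of the 5 libraries. Another 5 had a log2 ratio below 0, and null was the lowest of 5 for 3. Against the mean of the references the list's median was -0.15 in null and -0.41 in floxed, where all tested symbols had -0.30 and -0.44. The list as a whole was thus not above the references in null. Hba-a2, an alpha chain of haemoglobin, stood at 1512 FPKM in the null library and 276 FPKM in the floxed library, against 201, 131 and 377 FPKM in the CD19Cre, CEBPaCre and CD11cCre libraries. Hbb-b2, a beta chain, stood at 1193 FPKM in the null library and 245 FPKM in the floxed library, against 357, 175 and 555 FPKM in the CD19Cre, CEBPaCre and CD11cCre libraries. Null was above each of the others for both, while floxed lay within the reference range. Hba-a1, Hbb-b1 and Beta-s were 2-fold higher too, so that 5 of 5 haemoglobin symbols were, with a median of 2.05 (grouped after their values were seen). These symbols share near-identical sequence and are not independent. Hba-a1 lay near some references, with 865 FPKM in null, 304 FPKM in floxed and 698, 170 and 808 FPKM in the references. Alas2, which starts haem synthesis in red cell precursors, had 25.01 FPKM in null, 3.37 FPKM in floxed and 8.73, 3.51 and 11.2 FPKM in the references. It was highest in null and lowest in floxed. The haem synthesis enzymes of all cells gave no such difference, with log2 ratios of -0.00 for Urod and -0.14 for Cpox. Slc4a1, band 3 of the red cell membrane, was under the floor, at 1.15 and 0.122 FPKM. The list summed to 3912 FPKM in null, 1049 FPKM in floxed and 705 to 1991 FPKM in the references. The 2 null Gr-1+ libraries held 2844 and 2730.2 FPKM, both above the floxed and reference Gr-1- libraries. The part of red cells or platelets carried into the sort was not tested. Of 4 tested platelet genes, 1 was 2-fold lower and 0 higher. The lower gene was Pf4, a platelet chemokine, with 1.33 FPKM in null, 5.86 FPKM in floxed and 3.36, 1.67 and 2.24 FPKM in the references. Itgb3, Tuba4a and Gng11 had log2 ratios of -0.49, -0.01 and 0.58.

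Glucocorticoid targets did not move together. Fkbp5, a chaperone that dampens the glucocorticoid receptor and is itself induced by it, stood at 42.4 FPKM in the null library and 3.97 FPKM in the floxed library, against 15.4, 6.11 and 6.31 FPKM in the CD19Cre, CEBPaCre and CD11cCre libraries. It was 8.73-fold higher in null than in floxed, with null the highest and floxed the lowest of 5. Mt1, a metallothionein that glucocorticoids and metals induce, had 47.3 FPKM in null, 10.96 FPKM in floxed and 28.9, 19.6 and 16.5 FPKM in the references, in the same order at its ends. These were the only 2 of 20 tested targets past 2-fold, 0 were lower, and the list's median was 0.05, which became -0.08 when centred on the median of all symbols and -0.10 when centred within bins of length. Klf9, a direct target, had 8.65 FPKM in null, 4.41 FPKM in floxed and 7.29, 4.49 and 6.64 FPKM in the references, a log2 ratio of 0.83 with the same order at its ends. Tsc22d3, which encodes GILZ and is among the best known targets, went the other way, at 156 FPKM in null, 216 FPKM in floxed and 318, 444 and 407 FPKM in the references. Dusp1, a phosphatase of MAP kinases, had 451 and 309 FPKM, and the receptor gene Nr3c1 had 25.8 and 19.1 FPKM. The palindrome GNACANNNTGTNC, searched on both strands, was found in the promoter windows of 3 of 17 glucocorticoid targets and in 13 of 5615 tested symbols (0.232%). In the null Gr-1+ libraries Fkbp5 stood at 22.5 and 9.79 FPKM and Mt1 at 85.5 and 29.3 FPKM, each higher in replicate 1.

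Rgs1, which shortens signals of chemokine receptors, stood at 53.3 FPKM in the null library and 5.17 FPKM in the floxed library, against 6.53, 12.4 and 29.5 FPKM in the CD19Cre, CEBPaCre and CD11cCre libraries. The null library was the highest and floxed the lowest, but the references differed among themselves by more than 4-fold. In the 2 null Gr-1+ libraries Rgs1 stood at 28.00 and 0.476 FPKM, a wider gap than that between null and floxed. Rgs1 belongs to the immediate early list, genes that switch on within minutes of a stimulus or of cell handling. Of 29 tested, 2 were 2-fold higher in null and 0 lower, with a median of 0.12, against 1.30 between the Gr-1+ replicates. Egr1, the second, had 7.21 FPKM in null, 1.11 FPKM in floxed and 6.55, 3.39 and 27.2 FPKM in the references. Cxcl2, a chemokine for neutrophils, had 21.1 FPKM in null, 2.41 FPKM in floxed and 2.83, 3.44 and 62.2 FPKM in the references and 225 and 0.457 FPKM in the null Gr-1+ libraries. For Egr1 and Cxcl2 the CD11cCre library lay above null. Fosb and Dusp1 showed the same, at 28.3 and 2076 FPKM in CD11cCre. The part of cell handling in these values was not tested.

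**Figure D3:**
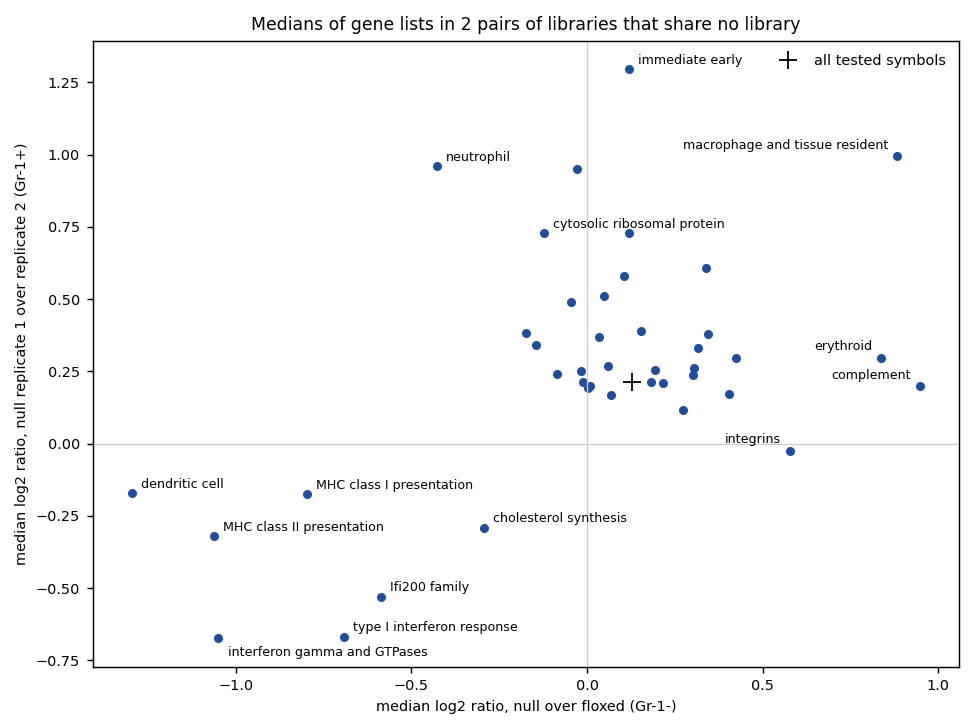
Median log2 ratio of gene lists with at least 7 tested genes, in null over floxed Gr-1- (horizontal axis) and in null replicate 1 over replicate 2 of Gr-1+ (vertical axis). Each point is 1 list and the cross is all tested symbols. Small RNAs were left out. The NK cell and B cell lists are not drawn either, as only 2 and 3 of their tested genes reached the floor in the Gr-1+ pair. The interferon lists lie below 0 on both axes, the erythroid list is higher in null with 0.30 between the replicates, and the immediate early list stands at 0.12 and 1.30.

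Complement and macrophage genes had the highest medians beside the erythroid ones, and several broader classes leaned the same way by less. Of 8 tested complement genes, 4 were 2-fold higher and 0 lower, with a median of 0.95. C1qb, a chain of the first complement component, had 10.9 FPKM in null, 1.698 FPKM in floxed and 16.7, 16.9 and 4.14 FPKM in the references, Cfp, properdin, had 46.9 FPKM in null, 20.4 FPKM in floxed and 92.9, 26.04 and 37.6 FPKM in the references, and Itgam, the CD11b chain that binds cleaved C3 and was used in the sort, had 136 FPKM in null, 66.1 FPKM in floxed and 68.3, 179.5 and 157 FPKM in the references. Floxed was the lowest of the 5 libraries for C1qb, Cfp and Itgam, and null lay within the reference range for these. Against the mean of the references the complement list's median was 0.09 in null and -0.77 in floxed. All 7 tested macrophage genes were above 0, with a median of 0.88 and 3 past 2-fold, C1qb and Spic among them. Between the null Gr-1+ replicates the same list had a median of 0.99, with 7 of 7 genes of the same sign in both pairs, while complement genes had a median of 0.20. Spic, a transcription factor of red pulp macrophages that haem induces, had 43.6 FPKM in null, 17.8 FPKM in floxed and 33.8, 22.6 and 16.4 FPKM in the references. Of 19 tested genes of Toll-like receptors and their partners, 2 were higher. Cd14, a coreceptor for lipopolysaccharide, had 112 FPKM in null, 45.9 FPKM in floxed and 122, 59.2 and 68.5 FPKM in the references, and Tlr8 had 26.8 FPKM in null, 11.2 FPKM in floxed and 26.8, 40.4 and 42.5 FPKM in the references. Tlr7, which Yaa duplicates, had 76.3 FPKM in null, 46.8 FPKM in floxed and 86.3, 102 and 110.5 FPKM in the references, and floxed was the lowest for it as for Tlr8, Tlr4 and Tlr2. The adaptor Myd88 had a log2 ratio of 0.20. Of 29 inhibitory and paired receptors, 3 were 2-fold higher and 0 lower, with a median of 0.34. The activating receptors Pira7 and Pira2 had log2 ratios of 1.82 and 1.17, within a family of near-identical genes, and Siglece, an inhibitory receptor for sialic acid, had 115 FPKM in null, 56.4 FPKM in floxed and 124, 87.3 and 56.4 FPKM in the references. Id2, an inhibitor of E-protein transcription factors, had 252 FPKM in null, 108 FPKM in floxed and 111, 129 and 126 FPKM in the references, with null above and floxed below the references. Of 26 glycolysis and hypoxia genes 25 were above 0, with a median of 0.34, and of 25 antioxidant genes 18, with a median of 0.32, against 4441 of 7136 over all tested symbols. Integrins and lysosomal genes had medians of 0.58 and 0.31, with floxed at -0.91 and -0.75 against the references. Null stood at -0.63 and -0.34 against them, where all tested symbols had -0.30 in null.

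Genes that define the monocyte subsets were mostly alike. Of 29 tested nonclassical monocyte genes 0 were 2-fold higher and 0 lower, with a median of 0.12, close to the 0.13 of all symbols. Hes1, a target of Notch signalling, came closest to 2-fold, at 42.2 FPKM in null, 85.2 FPKM in floxed and 58.9, 77.1 and 94.5 FPKM in the references. Among 15 classical monocyte genes, 1 was higher and 3 were lower. The sorted epitope Gr-1 is shared by Ly6C, and Ly6c2 had 8.27 FPKM in null, 46.6 FPKM in floxed and 22.5, 32.5 and 44.6 FPKM in the references, while Ly6c1, near-identical to it, had a log2 ratio of -1.92. Ly6a, the stem cell antigen Sca-1, which interferon induces, had 13.6 FPKM in null, 133 FPKM in floxed and 40.4, 68.6 and 66.5 FPKM in the references, and Ly6i, of the same gene cluster, had 25.1 FPKM in null, 201 FPKM in floxed and 111, 137 and 114 FPKM in the references. Null was the lowest and floxed the highest for all of these. Chi3l3, a chitinase-like protein of classical monocytes and neutrophils, was the higher gene, at 223 FPKM in null, 32.1 FPKM in floxed and 92.5, 10.8 and 18.3 FPKM in the references, and its near-copy Chi3l4 had a log2 ratio of 2.25. The null Gr-1+ libraries held 6304 and 3239.9 FPKM of Chi3l3. Ratios of other classical genes were smaller, as Ccr2 and Fn1 had 28.2 and 7.63 FPKM in null and 21.5 and 6.23 FPKM in floxed. Of 7 tested neutrophil genes, 1 was 2-fold higher, again Chi3l3, and 2 were lower. These were Retnlg, a resistin-like secreted protein, with 11.1 FPKM in null, 74.98 FPKM in floxed and 8.73, 22.7 and 54.5 FPKM in the references, and S100a9, with 1.07 FPKM in null, 5.12 FPKM in floxed and 2.97, 6.75 and 4.54 FPKM in the references. S100a8, the partner of S100a9, stood at 12.4 and 7.73 FPKM in null and floxed. The null Gr-1+ libraries held 1423 and 379.5 FPKM of S100a8 and 413 and 148 FPKM of S100a9.

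Genes of cell maintenance gave small medians. Cytosolic ribosomal protein genes had -0.12 over 82 tested, respiratory chain genes -0.17 over 78, cholesterol synthesis genes -0.29 over 15 and cell cycle genes 0.03 over 14. Null was the lowest of 5 for 10 of the 15 cholesterol genes, with Fdps, which makes farnesyl diphosphate, at 20.3 FPKM in null, 36.3 FPKM in floxed and 39.4, 35.2 and 36.8 FPKM in the references. Of 190 families of symbols with a shared stem and at least 5 tested members, the galectins (Lgals) had the lowest median, -0.83, and Ifi, Irf, Ndufa and Psmb followed. Lgals3bp, a secreted partner of galectins that interferon induces, had 9.797 FPKM in null, 26.3 FPKM in floxed and 26.2, 45.2 and 64.2 FPKM in the references, and Lgals1, which curbs T cells, had 37.7 FPKM in null, 71.7 FPKM in floxed and 121, 78.5 and 116 FPKM in the references. The highest medians were those of Pira at 0.72, Tlr at 0.69, Mtmr at 0.60, Dpp at 0.58 and Dock at 0.58. Neighbours of Fcgr2b on chromosome 1 had a median of -0.02 over 26 tested, with F11r 2-fold higher and Slamf8 and Tstd1 2-fold lower.

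Transcript length moved with the comparison. Tested symbols were matched to the longest annotated transcript (97.7% matched) and cut into 10 bins of equal size by length. The median log2 ratio of null over floxed was -0.20 in the bin of the shortest, of 143 to 1222 bases, and rose from bin to bin to 0.38 in the longest. Floxed against the mean of the references went from 0.05 in the shortest bin to -0.61 in the longest, while null against the references went from -0.16 to -0.23, so the slope with length lay in the floxed library. In 10 bins by share of G and C bases, null over floxed went from 0.25 in the lowest bin to 0.02 in the highest. There null against the references went from -0.13 to -0.42 and floxed from -0.41 to -0.43. No centring within these bins was done. With ratios centred within bins of length, the median was -0.82 for the type I interferon list, -1.02 for MHC class II and -1.99 for NK cell genes. Fkbp5 had a log2 ratio of 2.88, Rgs1 of 2.81 and Ccl5 of -3.22 after this centring. The classes that were higher in null differed in how far this centring moved them. The median went from 0.58 to 0.30 for integrins, from 0.42 to 0.24 for Fc gamma receptors and their signalling, from 0.31 to 0.09 for lysosomal genes and from 0.30 to 0.12 for Toll-like receptors and partners, the last close to the 0 that the centring sets. Complement genes went from 0.95 to 0.71, with 3 of 8 still 2-fold higher, macrophage genes from 0.88 to 0.96, and inhibitory and paired receptors stayed at 0.29 over their 25 matched genes. In the erythroid list 2 of 17 genes, Hbb-b1 and Hbb-b2, had no matched transcript, and the other 15 had a median of 0.24 before and 0.10 after the centring, with 5 still 2-fold higher.

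**Figure D4:**
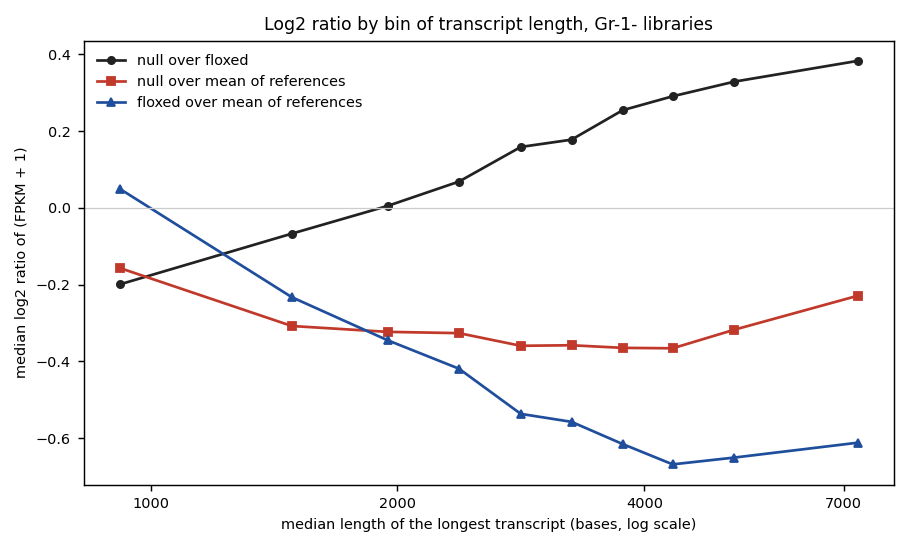
Median log2 ratio of (FPKM + 1) in each of 10 bins of transcript length, drawn at the median length of the bin on a log axis, for null over floxed (black), null over the mean of the references (red) and floxed over the mean of the references (blue). Null over floxed climbs from -0.20 to 0.38, and the blue line falls from 0.05 to -0.67 and ends at -0.61 while the red line stays between -0.37 and -0.16.

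Some of the widest gaps came with values at or near 0. Actr3, a subunit of the Arp2/3 actin nucleator, was listed at 294 FPKM in floxed and at 0 in null and all 3 references, and at 0 and 480.1 FPKM in the 2 null Gr-1+ libraries. Every cell uses this gene, so a listed 0 can be a failed estimate, and no fold is given. Rpl30, a ribosomal protein gene that every cell uses too, had 11.3 FPKM in null, 0.000249 FPKM in floxed and 3.67, 5.92 and 0.000226 FPKM in the references, so that floxed and the CD11cCre library were near 0, and no fold is given for it either. Of the symbols 2-fold apart, 47 of the higher and 36 of the lower were listed at 0 in 1 of the 2 libraries. The small RNA Snord37, at 4202 FPKM in null and 0 in floxed, was among them. Tmsb10, a short actin-binding peptide, had 299 FPKM in null, 939.7 FPKM in floxed and 548, 541 and 553 FPKM in the references, with null the lowest and floxed the highest of 5.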

How the data were processed

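RNA of sorted CD11b+ blood monocytes was sequenced on an Illumina instrument after SMART-Seq v4 cDNA synthesis, per the labels' protocols. The deposited values are FPKM, 1 value per symbol and library for 23234 symbols. The tools in the submitters' processing notes are Cufflinks 2.1.1 and TopHat2 2.0.8, with build mm9, and their roles, the annotation and settings are not given in the sources used here. FPKM hold no counts, so no counting interval is given. Relative depth was read from the most common ratio of values under 0.3 FPKM. From the deposited FPKM, log2 ratios of (FPKM + 1) were computed with pandas 2.3.3 and numpy 2.4.6 in Python 3.11.15 for symbols at 5 FPKM or more in null or floxed. A 2-fold ratio was counted, with no p-value, since each side has 1 library. The 2-fold counting was run on simulated data, a copy of the floxed library with 4-fold changes put into genes at 20 FPKM or more. The noise added was far smaller than the spread between real libraries. That run checks the code only and does not measure the error of the counts. No value column was left out (0 columns), and all 9 libraries were grouped by their labels.

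The comparison and the 48 gene lists were chosen with earlier results of these data known. Named were Fkbp5, Rgs1, Ccl5 and the Fc gamma receptors, the 15 highest and 15 lowest ratios among symbols at 10 FPKM or more in either library that were apart from the references (without predicted genes and small RNAs), as many as 4 members per list (those of largest ratio), and 5 symbol families at each end. Other list members in the text, such as Isg15, Irf7, Ddx58, Tsc22d3, Nr3c1 and Lgals1, were chosen after their values were seen. Some genes that the rule names are not reported here. Transcript lengths come from GENCODE vM21 and promoters from RefSeq (GRCm38.p6), matched by symbol, 590 through an older name. Alternatives were the pseudocount, floor, scaling, centring, fold, references left out, small RNAs left out and length.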

Additional observations from a re-analysis of the deposited data

Results flagged for a closer look

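Mean log2(FPKM + 1) of the 48 lists and the levels of 34 named genes were screened over the 5 Gr-1- libraries for a library far from the other 4, and 8 of 82 values were picked out. Most of the named genes were picked for their values in these same libraries, and the lists share genes. No chance rate can therefore be set beside this count. The null library was the lowest, far from the rest, in 3 of them. Its mean level of the interferon gamma and GTPase list was 2.13, against 2.74 to 2.83 in the other 4 libraries. Its mean level of the MHC class I list was 6.19, against 6.89 to 7.06. Ly6i, a gene of the Ly6 cluster, stood at 25.1 FPKM in null and at 111 to 201 FPKM in the others.

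The floxed library stood apart in 1 gene. Actr3 was listed at 294 FPKM in floxed and at 0 in the other 4.

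The other picks were of reference libraries. The CD11cCre library had the highest mean level of the immediate early list, 6.04 against 4.93 to 5.22, and of the NF-kB and inflammatory cytokine list, 3.86 against 3.53 to 3.60. The CD19Cre library had the highest mean level of mitochondrial ribosomal protein genes, 4.90 against 4.36 to 4.46, and of respiratory chain genes, 6.32 against 5.87 to 6.00. No cause was tested for any of these values.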

How the results depend on the processing

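No paired analysis was possible because the null and floxed Gr-1- groups hold 1 library each and share fewer than 2 replicate numbers. The medians followed over the settings were those of type I interferon, MHC class II, glucocorticoid, NK, T, B cell and erythroid genes. Of these and the named gene ratios followed with them, only the median of glucocorticoid targets was reversed in sign, near 0 throughout (-0.10 to 0.19). Some other medians near 0 changed sign when centred within bins of length. Among them, immediate early and nonclassical monocyte genes each went from 0.12 to -0.02, and cytosolic ribosomal protein genes from -0.12 to 0.01. Leaving out 1 reference at a time gave 149 to 163 higher and 149 to 154 lower symbols apart from the references. A pseudocount of 5 gave 98 higher symbols (83 apart) and 2.88% of symbols 2-fold apart between replicates. A floor of 20 FPKM gave 97 higher and 96 lower symbols (82 and 91 apart), a 4-fold cut 69 and 65 (54 and 62 apart), and a floor of 1 FPKM or none 250 lower symbols (240 apart). Without small RNAs and predicted genes there were 103 and 101, with 97 lower ones apart.

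The NK cell median was -3.05 at a pseudocount of 0.1, -0.90 at 5 and -3.07 at a floor of 20 FPKM. The T cell median, over 2 genes, was -2.60 at a pseudocount of 0.1, -0.90 at 5, -1.25 at a floor of 1 FPKM and -2.21 at equal sums, and a floor of 20 FPKM left no gene of it. The erythroid median was 0.60 at a pseudocount of 5, 0.31 at a floor of 1 FPKM, 1.51 at a floor of 20 FPKM and 0.096 centred on length, over the 15 of its 17 genes with a matched transcript, which had 0.24 before the centring. At a floor of 1 FPKM MHC class II was -0.60 and B cell -0.90. MHC class II was -1.19 centred on the median, type I interferon -0.96 at a floor of 20 FPKM, and B cell -0.61 centred on length. Glucocorticoid targets were 0.19 over members in no other list and -0.10 centred on length. A higher pseudocount shrinks ratios of low genes and a floor changes which genes are tested; for the other settings the cause was not tested. Depth was estimated only roughly, as a ratio between libraries, so genes of a few FPKM carry an unknown counting error.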

Other observations

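Over 6057 symbols that reached the floor in both pairs, without small RNAs and predicted genes, the log2 ratios of null over floxed Gr-1- and of null Gr-1+ replicate 1 over replicate 2 had a Pearson r of 0.15 and a Spearman rho of -0.14 across genes, which are not independent replicates. The 2 pairs share no library. Of 91 of these symbols that were 2-fold higher in null Gr-1-, 62 were higher in Gr-1+ replicate 1 than in replicate 2, 21 of them 2-fold, and 1 was 2-fold lower. Of 69 that were 2-fold lower, 52 were lower in replicate 1, 14 of them 2-fold, and 6 were 2-fold higher. Over all 6057 symbols 76.1% were higher in replicate 1. Cd38, Id2 and Pira7 were higher in null than in floxed and in Gr-1+ replicate 1 than in replicate 2, with log2 ratios between the replicates of 1.93, 1.38 and 2.64. Whether the number 1 marks a shared mouse is not given in the labels.

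Other pairs of Gr-1- libraries were 2-fold apart at 3.12% (CEBPaCre and CD11cCre) to 30.9% (floxed and CD19Cre) of tested symbols, and the latter share was 16.8% once ratios were centred on their median. The null library was 2-fold apart from CEBPaCre at 4.89% and the floxed library at 14.1%, or at 4.73% and 7.08% once centred. Eosinophil-associated ribonucleases were high in both libraries: Ear2 stood at 879 FPKM in null and 780.2 FPKM in floxed, above the 270.2 to 644 FPKM of the references, while Epx was listed at 0 in both.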
